A study of Mus musculus with 6 samples.

Results

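The genes described here build and mark the wall of brain blood vessels. They are 10 genes of the endothelial barrier and its junctions, out of 19505 genes with a named probe set, and each was read from the 1 probe set that carried its symbol in the table of the array platform. The RNA came from whole olfactory bulbs (OBs) of 6 female mice aged 18 months, each hybridised to its own mouse Clarion S array (Affymetrix). In 3 of them, the Tg2576 transgenic mice, a Swedish form of human amyloid precursor protein (APP) is expressed from the hamster prion promoter, and the other 3 were wild-type (WT) littermates without it. This promoter is not specific to endothelium. The panel was chosen by gene name with the log2 differences between the genotypes already known, so the differences of these 10 genes are given as a description with their errors, and without a test.

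Capillaries of the brain are lined by endothelial cells that seal the gaps between them with tight junctions and hold on to each other with adherens junctions, so that nutrients cross mainly through carriers and many foreign compounds are pumped back into the blood. Claudin-5 is the main claudin of brain vessels, and occludin belongs to the same strands. The scaffold protein ZO-1 ties the strands to actin, and VE-cadherin keeps the cells attached. In Alzheimer's disease, amyloid peptides also collect in the walls of brain vessels.

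The values are log2 expression levels after RMA (robust multi-array average), by which the authors corrected background, aligned the arrays and summarised the probes of a set. The array medians lay between 8.18 and 8.22 over the 22206 probe sets tested, and the arrays correlated with each other at Pearson's r of 0.992 to 0.995 across these probe sets, which are not independent. Of the 11 measured markers that define endothelium, 10 lay above the median of the negative control probe sets, the lowest being Clec14a with a mean of 6.62. All 7 measured markers of mitral, granule and periglomerular cells also lay above it, as did 2 of 5 epithelial markers. The 10 barrier genes spanned a wide range of signal. The lowest array value of Ocln exceeded 55.9% of the 5222 negative controls, and those of Abcb1a, Cldn5 and Slc2a1 exceeded 95.4%, 97.8% and 99.3% of them. On arrays, differences of probe sets whose signal lies among the negative controls can be compressed, which was not tested here.

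Cldn5, which encodes claudin-5, stood at 11.56, 11.66 and 11.63 in Tg2576 OBs, against 10.87, 11.26 and 10.72 in WT OBs. The lowest Tg2576 array was above the highest WT array, WT replicate 2. The mean was 11.62 ± 0.051 in Tg2576 OBs, against 10.95 ± 0.28 in WT OBs (n = 3 per genotype, SD), so that the WT mice differed more among themselves than the Tg2576 mice did. The log2 difference was 0.67 (SE 0.13, 95% confidence interval 0.37 to 0.97), a fold of 1.59. It was larger in size than the differences of 99.8% of all probe sets tested. The difference was 0.82 without WT replicate 2, the WT mouse nearest to the Tg2576 mice, and 0.55 without WT replicate 3, the farthest one.

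Among the 10 genes, Cldn5 alone lay past the thresholds, an unadjusted p under 0.01 in limma together with a fold over 1.3 or under 0.7. Over all probe sets, 0.797% lay past these thresholds, 155 higher (0.698%) and 22 lower in Tg2576 OBs. The contrast was known when the panel was chosen, so this count carries no weight of its own. With limma and Benjamini-Hochberg adjustment, 0 of the 22206 probe sets passed a false discovery rate of 5%. The unadjusted p was under 0.05 for 1896 of them (8.54%), and a robust limma-trend fit put 9 under that false discovery rate. The arrays did not overlap between genotypes for 3 of the 10 genes, Cldn5, Cdh5 and Flt1, all higher in Tg2576 OBs. Over all probe sets the arrays did not overlap for 14.1%, and 7.03% were higher in this way. Nothing is read from these shares either.

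**Figure D1:**
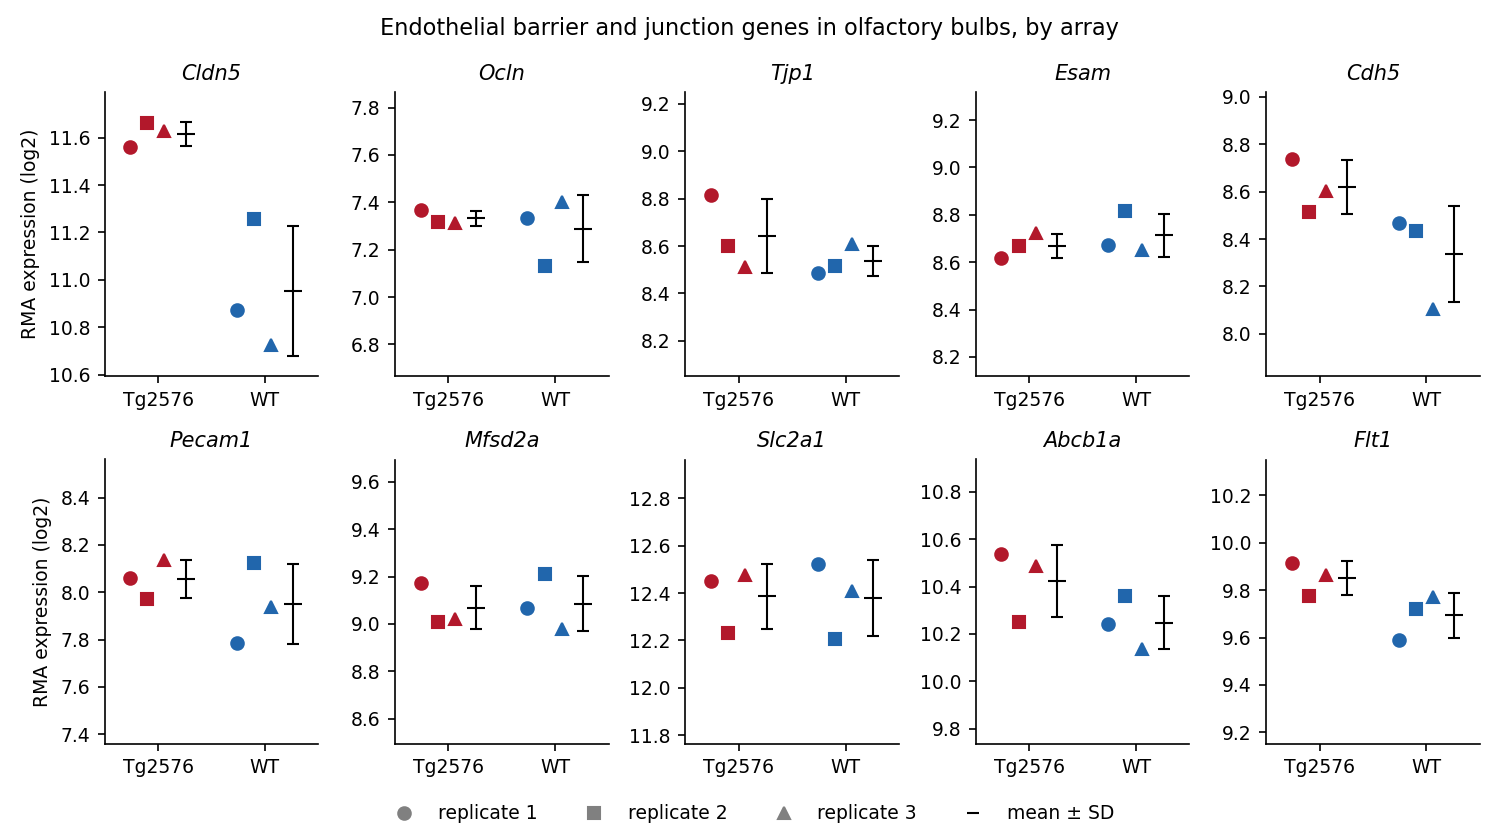
RMA expression on the log2 scale (y axis, 1.2 log2 units high in every panel) of the 10 genes in 3 Tg2576 (red) and 3 WT (blue) arrays, with the replicate number as the symbol and the mean ± SD in black. Cldn5 lies between 11.56 and 11.66 in Tg2576 OBs, above all 3 WT arrays (10.72 to 11.26), whereas the arrays of the other genes overlap or nearly touch.

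Of the genes whose arrays did not overlap, Cldn5 and Flt1 have an entry in the promoter table of RefSeq (build GRCm38.p6), and their sequences are shown because these are the regions from which the measured RNAs start. Each line holds the 250 bases before the start of the gene, 5′ to 3′ on the strand of the gene, at chr16:18776597-18776846 (plus strand) for Cldn5 and chr5:147726012-147726261 (minus strand) for Flt1. Capitals mark every match, on either strand, to a GC box (GGGCGG), an ETS core (AGGAAG), a SOX core (CATTGT) or a TATA box (TATAAA), none of which overlapped another.
Cldn5: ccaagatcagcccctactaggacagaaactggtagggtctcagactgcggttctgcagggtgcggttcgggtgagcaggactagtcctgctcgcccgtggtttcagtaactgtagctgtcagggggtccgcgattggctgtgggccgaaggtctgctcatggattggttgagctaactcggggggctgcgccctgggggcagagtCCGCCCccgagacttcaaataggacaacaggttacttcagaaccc
Flt1: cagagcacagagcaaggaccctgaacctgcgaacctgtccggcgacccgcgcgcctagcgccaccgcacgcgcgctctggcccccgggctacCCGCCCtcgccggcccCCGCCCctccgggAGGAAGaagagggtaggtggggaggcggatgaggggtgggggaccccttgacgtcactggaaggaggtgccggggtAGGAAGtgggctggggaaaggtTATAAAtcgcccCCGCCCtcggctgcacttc
ETS and SOX proteins are transcription factor families that are active in endothelium. The Cldn5 window held 1 GC box, on the strand opposite to the gene with its first base 45 bases before the start. It held 0 matches to AGGAAG or CATTGT. The Flt1 window held 3 GC boxes on the opposite strand, 2 AGGAAG matches at 129 and 53 bases and a TATA box at 31 bases before the start. AGGAAG was found in 29.5% of the 32851 windows of the table, the GC box in 32.7%, the TATA box in 12.4% and CATTGT in 10.7%. Of the 7 genes of the panel with an entry, 2 held AGGAAG, Flt1 and Abcb1a, and 5 held a GC box. Cdh5, Esam and Pecam1 had no entry. A match describes the letters alone.

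The partners of claudin-5 in the tight junction did not share its difference in size. Ocln, which encodes the strand protein occludin of endothelia and epithelia, was at 7.37, 7.32 and 7.31 in Tg2576 OBs and at 7.33, 7.13 and 7.40 in WT OBs. The Tg2576 arrays lay within the WT range. The log2 difference of Ocln was 0.044 (SE 0.090, interval -0.16 to 0.25). Tjp1, the gene of ZO-1, which ties claudins to actin in many cell types, was at 8.81, 8.60 and 8.51 in Tg2576 OBs, against 8.49, 8.52 and 8.61 in WT OBs. Tg2576 replicate 1 was above all WT arrays, and replicates 2 and 3 lay among them. The log2 difference of Tjp1 was 0.10 (SE 0.096, interval -0.11 to 0.32) and 0.018 without Tg2576 replicate 1. For both genes the upper end of the interval lay under the log2 of the fold threshold, 0.379. The Ocln arrays exceeded only 55.9% to 60.6% of the negative controls, so its difference may be compressed, which was not tested.

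Among the genes of adhesion between endothelial cells, Cdh5 showed the next largest difference after Cldn5. Cdh5, which encodes VE-cadherin of adherens junctions, was at 8.74, 8.52 and 8.60 in Tg2576 OBs, against 8.47, 8.44 and 8.10 in WT OBs. Every Tg2576 array was above every WT array, and WT replicate 3 stood low. The mean was 8.62 ± 0.11 in Tg2576 OBs, against 8.34 ± 0.20 in WT OBs (n = 3 per genotype, SD), which differ by 0.28 on the log2 scale (SE 0.11, interval 0.022 to 0.55), which was 0.17 without WT replicate 3. Cdh5 did not reach the p threshold of 0.01 or the fold of 1.3. Esam, an immunoglobulin-like adhesion molecule of endothelial tight junctions, was at 8.62, 8.67 and 8.72 in Tg2576 OBs and at 8.67, 8.82 and 8.65 in WT OBs. Its arrays overlapped, with a log2 difference of -0.045 (SE 0.080, interval -0.23 to 0.14). Pecam1, the gene of CD31, an adhesion molecule of endothelial contacts that is also found on blood cells, was at 8.06, 7.97 and 8.13 in Tg2576 OBs, against 7.79, 8.12 and 7.94 in WT OBs. WT replicate 2 lay within the Tg2576 range, and the log2 difference was 0.11 (SE 0.10, interval -0.13 to 0.34). Without WT replicate 1, the lowest array for Pecam1, that difference was 0.025.

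None of the panel's genes of transport across the vessel wall passed the thresholds. The differences of Mfsd2a and Slc2a1 were small, while the interval of Abcb1a reached past the upper fold threshold. Mfsd2a, which encodes the lipid carrier through which brain endothelium takes up docosahexaenoic acid, was at 9.17, 9.01 and 9.02 in Tg2576 OBs and at 9.07, 9.21 and 8.98 in WT OBs. The highest and the lowest array were both WT, and the log2 difference was -0.016 (SE 0.091, interval -0.22 to 0.19). Slc2a1, the gene of the glucose carrier GLUT1 of endothelium and astrocytes, was at 12.45, 12.23 and 12.48 in Tg2576 OBs and at 12.52, 12.21 and 12.41 in WT OBs. Its 2 lowest arrays were replicate 2 of each genotype, and the log2 difference was 0.0070 (SE 0.11, interval -0.24 to 0.25). Abcb1a, which encodes the drug efflux pump P-glycoprotein, was at 10.54, 10.25 and 10.49 in Tg2576 OBs, against 10.24, 10.36 and 10.14 in WT OBs. Tg2576 replicates 1 and 3 were above all WT arrays and replicate 2 was not. The log2 difference of Abcb1a was 0.18 (SE 0.10, interval -0.056 to 0.41), and 0.27 without Tg2576 replicate 2. The related gene Abcb1b differed by 0.15 (SE 0.11) between the genotypes, and by 0.082 without Tg2576 replicate 3 and 0.26 without Tg2576 replicate 2. Whether its RNA binds the probes of Abcb1a was not tested.

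Flt1 encodes VEGFR1, a receptor that binds VEGF-A, VEGF-B and placental growth factor and, in its soluble form, holds VEGF-A back from VEGFR2. It was at 9.91, 9.77 and 9.87 in Tg2576 OBs, against 9.59, 9.72 and 9.77 in WT OBs. The lowest Tg2576 array and the highest WT array both rounded to 9.77, so the genotypes were barely apart. The log2 difference of Flt1 was 0.16 (SE 0.083, interval -0.033 to 0.35). Of its ligands, Vegfa was at 10.45, 10.45 and 10.81 in Tg2576 OBs and at 9.95, 10.44 and 10.34 in WT OBs, a log2 difference of 0.32 (SE 0.15, limma adjusted p = 0.592). Pgf differed by 0.23 (SE 0.11) and Vegfb by -0.15 (SE 0.099). Kdr, which encodes VEGFR2, differed by 0.20 (SE 0.18), with Tg2576 replicate 2 at 8.75 below replicates 1 and 3 at 9.26 and 9.40. None of these 4 genes passed the thresholds, and single arrays moved each of them. With 1 array left out, the difference of Vegfa was as low as 0.18 (WT replicate 1), that of Pgf 0.14 (WT replicate 3), that of Vegfb as small as -0.084 (WT replicate 2), and that of Kdr between 0.067 (Tg2576 replicate 3) and 0.395 (Tg2576 replicate 2).

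**Figure D2:**
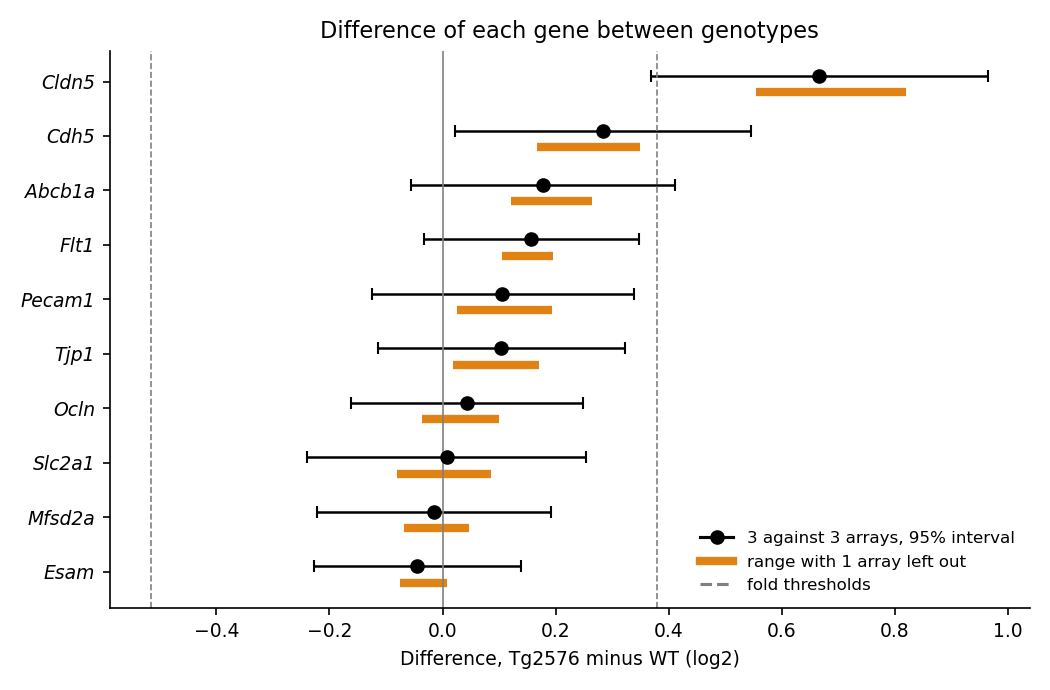
Log2 difference between 3 Tg2576 and 3 WT OBs (x axis) for each gene of the panel (y axis), as the limma estimate with its 95% confidence interval in black and, in orange, the range of the estimate when 1 array was left out. Dashed lines mark the fold thresholds at -0.515 and 0.379. The Cldn5 estimate (0.67, and 0.55 to 0.82 without 1 array) lies to the right of the upper line, and the other 9 lie between -0.045 and 0.28.

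Across the panel, 8 of the 10 genes had a higher mean in Tg2576 OBs and 2, Esam and Mfsd2a, a lower one, against a higher mean in 48.4% of all probe sets. The median log2 difference was 0.11 over the 10 genes, 0.10 over the 9 genes without Cldn5 and -0.0049 over all probe sets. Relative to the WT mean of each gene, those 9 genes lay on average at 0.16, 0.012 and 0.10 in Tg2576 replicates 1, 2 and 3, against -0.0067, 0.032 and -0.026 in WT replicates 1, 2 and 3. The average of the 9 genes in Tg2576 replicate 2 was thus among the WT values. Cldn5 alone lay at 0.61, 0.71 and 0.68 in the same Tg2576 arrays and at -0.080, 0.31 and -0.23 in the WT arrays, with its highest value in Tg2576 replicate 2. Tg2576 replicate 1 was the highest array for 4 of the 10 genes, and WT replicate 3 the lowest for 4.

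**Figure D3:**
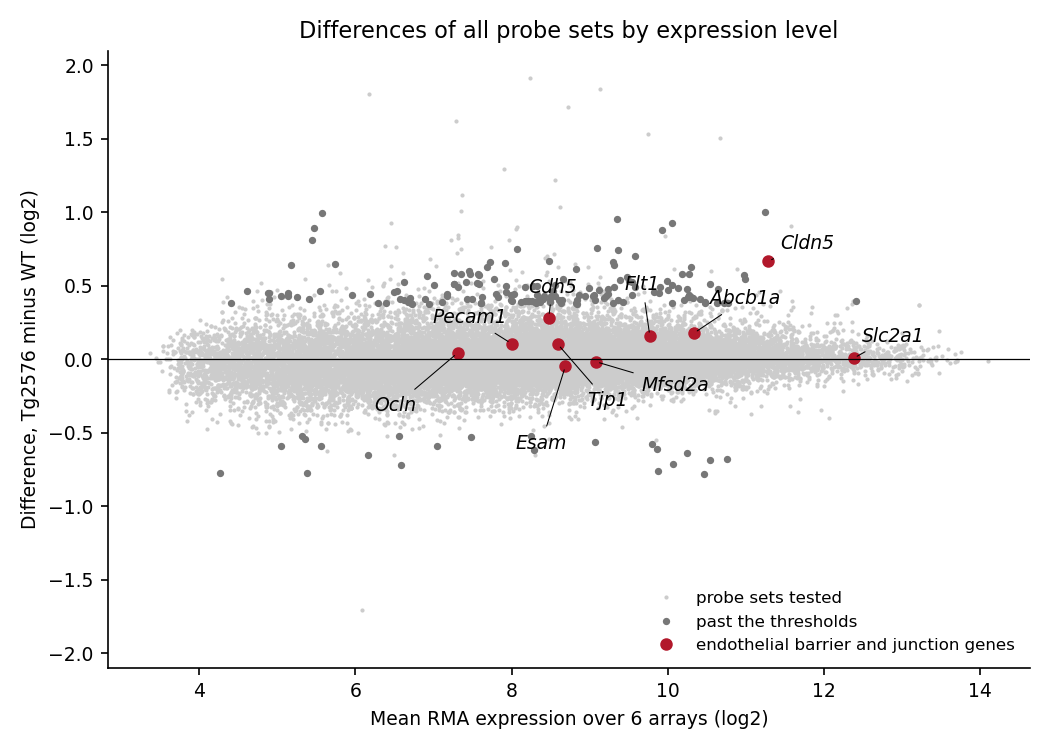
Log2 difference between Tg2576 and WT OBs (y axis) against the mean RMA expression over the 6 arrays (x axis, log2) for the 22206 probe sets tested (light grey), those past the thresholds (dark grey) and the 10 genes of the panel (red). Cldn5 lies at 0.67, above 99.8% of the probe sets in size, and the other 9 genes lie between -0.045 and 0.28.

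In RNA of whole bulbs, more endothelial cells and more RNA per endothelial cell cannot be told apart. The panel was therefore set beside 36 other markers of endothelium. Their average lay at 0.10, -0.027 and 0.16 from the WT mean in Tg2576 replicates 1, 2 and 3, against 0.019, 0.012 and -0.031 in WT replicates 1, 2 and 3. The genotypes overlapped, because Tg2576 replicate 2 was among the WT arrays. None of the 36 markers passed the thresholds in limma. At an unadjusted p under 0.05, 7 were higher and 1 was lower. These 7 are 19.4% of the list, against 4.57% of all probe sets that were higher and 3.97% that were lower, and the median difference was 0.050. Such a share was not particular to endothelium, since it was 23.1% for markers of the olfactory mucosa, 31.2% for pericytes, 46.7% for astrocytes and 50.0% for olfactory sensory neurons. Other lists had lower shares, at 11.8% for meningeal fibroblasts and for epithelium, 11.1% for blood and 8.33% for smooth muscle. The share was 0% for perivascular macrophages and for the choroid plexus. Ramp2, a subunit of the adrenomedullin receptor, had the smallest p of them, with a log2 difference of 0.34 (SE 0.095, limma adjusted p = 0.437), and passed the thresholds without WT replicate 1 (0.42). With the mean of these markers subtracted from each array, the difference of Cldn5 was 0.59 and that of Cdh5 0.21. This subtraction lowers the difference of every probe set by the same amount.

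Markers of other cells were not equal between the arrays. The 16 pericyte markers, of cells that wrap capillaries, lay on average 0.15 to 0.20 above the WT mean in Tg2576 arrays, against -0.024 to 0.031 in WT arrays. Of these, 15 had a higher mean in Tg2576 OBs and none passed the thresholds. Pdgfrb, the receptor through which endothelium recruits pericytes, differed by 0.35 (SE 0.079, limma adjusted p = 0.339), with a fold under 1.3, and passed without Tg2576 replicate 1 (0.38) or WT replicate 2 (0.40). The average of 12 smooth muscle markers lay between -0.13 and 0.061 in Tg2576 and between -0.12 and 0.088 in WT arrays. The 15 astrocyte markers lay at 0.14 to 0.19 in Tg2576 and at -0.020 to 0.024 in WT arrays, and 1 of them, Gfap, rose by 0.43 (SE 0.11, limma adjusted p = 0.381), a call that was lost in 4 of the 6 fits with 1 array left out, namely Tg2576 replicates 2 (0.41) and 3 (0.39) and, among WT, replicates 1 (0.41) and 3 (0.35). The Gfap call was also lost with the endothelial marker mean as a covariate (0.40). Subtracting that mean lowers every gene by the same amount, which took Gfap (0.35) under the fold threshold. The 17 epithelial markers lay at 0.019 to 0.15 in Tg2576 and at -0.089 to 0.0715 in WT arrays, and Epcam, an epithelial adhesion gene, was at 6.91, 6.77 and 6.84 in Tg2576 and at 6.42, 6.42 and 6.78 in WT OBs, around the 6.78 to 6.91 of the negative control medians. Epcam differed by 0.30 (SE 0.11) and passed the thresholds without WT replicate 3 (0.42). The 26 markers of the olfactory mucosa, a tissue next to the bulb, differed most between mice of 1 genotype. They lay at 1.03 and 0.97 in Tg2576 replicates 1 and 3 and at -0.15 in Tg2576 replicate 2, against -0.20, -0.068 and 0.27 in WT replicates 1, 2 and 3. Of these markers 1 rose, Trp63, a gene of basal cells of epithelia, by 0.60 (SE 0.15, limma adjusted p = 0.381). Unlike the average of its list, Trp63 was highest in Tg2576 replicate 2 (8.09, against 7.53 and 7.65 in replicates 1 and 3), and its call was lost without WT replicate 2 (0.51) or 3 (0.61). The Cldn5 values of the 3 Tg2576 arrays lay within 0.099 of each other, so their order is of little use. The highest was in Tg2576 replicate 2, in which the average of the mucosa markers was low. With the mean of the mucosa markers as a covariate, the difference of Cldn5 was 0.74 and that of Cdh5 0.27, while the median of the 10 genes was 0.045, against 0.105 without the covariate. In that fit Abcb1a differed by 0.075, Flt1 by 0.077, Tjp1 by 0.051 and Pecam1 by 0.038, all smaller than without the covariate. The mucosa marker mean was itself high in Tg2576 replicates 1 and 3, so this fit cannot fully part it from genotype. Abcb1a and the average of the 9 genes were lowest among Tg2576 arrays in Tg2576 replicate 2. The 18 markers of the sensory neurons that send their axons into the bulb lay at 0.20 to 0.51 in Tg2576 and at -0.081 to 0.10 in WT arrays, and 5 of them, Omp, Stoml3, Adcy3, Gnal and Ebf2, rose, against 0.698% of all probe sets. The Adcy3 call was lost with the mucosa marker mean as a covariate (0.37). Gnal and Ebf2 were named after their values were seen. Of 17 markers of meningeal fibroblasts 1 rose, Dcn by 0.54 (SE 0.14). Its call was lost without Tg2576 replicate 1 (0.54), Tg2576 replicate 2 (0.49) or WT replicate 3 (0.37), and with the endothelial marker mean as a covariate (0.56). A call can end because the SE grows, with little change in the difference. Without Tg2576 replicate 1 the SE of Dcn was 0.17. None passed among 9 markers of blood, 10 of perivascular macrophages and 9 of the choroid plexus. The blood markers had a median difference of 0.33, and their average lay at 0.0016, 0.11 and 0.64 in Tg2576 replicates 1, 2 and 3, against -0.089 to 0.050 in WT arrays. Tg2576 replicate 3, where they were highest, was also the highest array for Pecam1 (8.13), but barely above WT replicate 2 (8.12). The fits with marker means were chosen after seeing the data. What part the endothelial, mucosa, pericyte, astrocyte, sensory neuron or blood markers had in these results was not tested.

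**Figure D4:**
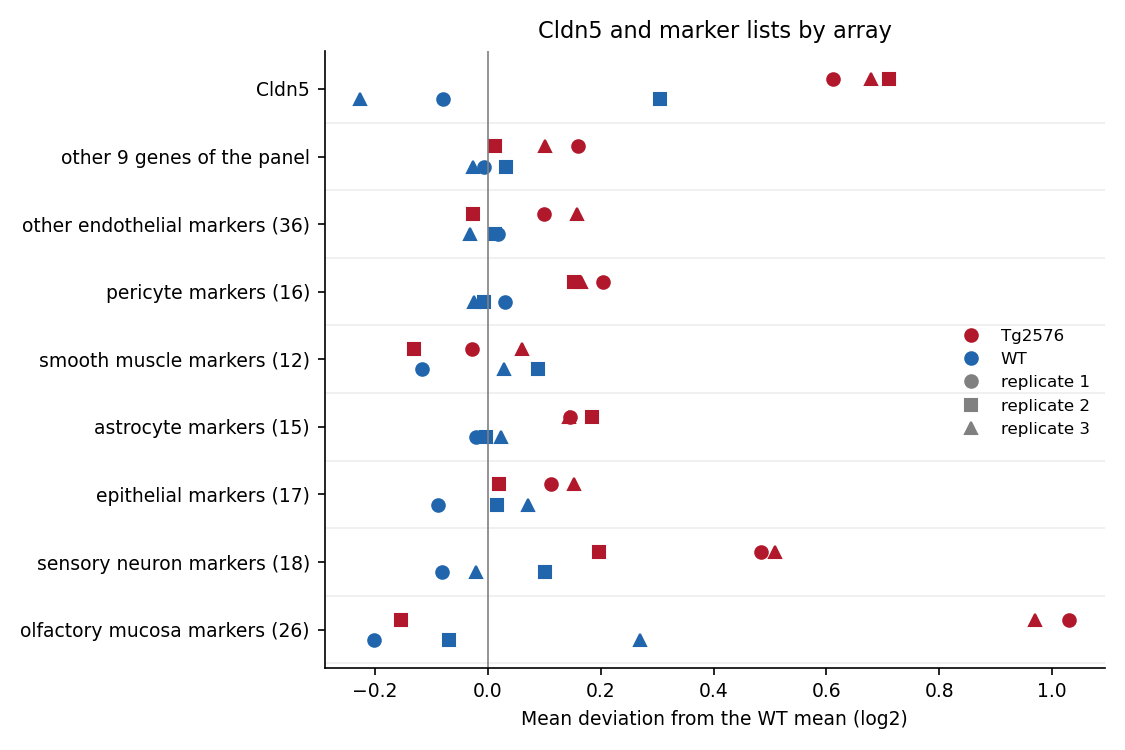
Deviation from the WT mean on the log2 scale (x axis) for Cldn5, for the average of the other 9 genes and for the averages of marker lists (y axis, number of genes in brackets) in each Tg2576 (red) and WT (blue) array. Cldn5 lies at 0.61 to 0.71 in all 3 Tg2576 arrays, while the mucosa markers split them into 2 arrays near 1 and 1 at -0.15.

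Relatives and partners of the panel were read from the same fit. Over all probe sets, 0.698% rose and 0.0991% fell. Of 22 other claudin genes, 1 rose and none fell. This was Cldn11, a claudin of myelin, by a log2 of 0.40 (SE 0.099, limma adjusted p = 0.370). Its call ended without Tg2576 replicate 2 (0.34) or 3 (0.39), without WT replicate 2 (0.35) or 3 (0.39) and after a further quantile normalization (0.37). It also ended with the endothelial marker mean subtracted (0.32), which lowers every gene by the same amount. Cldn12, a claudin found in brain vessels and other cells, differed by -0.015 (SE 0.091), and Cldn3 by -0.075 (SE 0.14). Of 26 other genes of tight junctions, none passed the thresholds, and their median difference was 0.00088. F11r, which encodes the junction adhesion molecule JAM-A, had the smallest p, with a log2 difference of 0.31 (SE 0.095, limma adjusted p = 0.482). The F11r arrays exceeded only 52.6% to 63.5% of the negative controls.

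Of 19 genes that act at adherens junctions, 1 rose, against 0.698% of all probe sets, and none fell. This was Ptprb, which encodes VE-PTP, an endothelial phosphatase that binds VE-cadherin and the receptor Tie2. Ptprb was at 7.70, 7.60 and 7.99 in Tg2576 OBs, against 7.35, 7.26 and 6.93 in WT OBs, with no overlap. The log2 difference was 0.58 (SE 0.14, limma adjusted p = 0.370), and it stayed past the thresholds in each of the 6 fits without 1 array. With the mean of the endothelial markers as a covariate it was 0.40, and with that of the mucosa markers 0.54, neither past the p threshold. Its lowest array value exceeded 50.3% of the negative controls.

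Of 34 other genes of transport across the barrier, 1 rose, against 0.698% of all probe sets, and none fell, with a median difference of 0.097. This was Slc16a4, of the monocarboxylate transporter family, by 0.40 (SE 0.10, limma adjusted p = 0.391). Its call ended without Tg2576 replicate 1 (0.37) or 3 (0.33) and without WT replicate 2 (0.39) or 3 (0.35). It also ended with the marker means as covariates or subtracted (0.26 to 0.32), where the subtraction lowers every gene by the same amount. Slc7a5, the large neutral amino acid carrier, differed by 0.083 (SE 0.11), or 0.0011 without Tg2576 replicate 3 and 0.20 without Tg2576 replicate 2, and Abcg2, the efflux pump BCRP, by 0.041 (SE 0.12). Of 16 genes of transcytosis, leakage and leukocyte adhesion, none passed the thresholds. Plvap, which forms diaphragms in leaky vessels and is low in barrier vessels, was at 7.58, 7.70 and 7.84 in Tg2576 OBs and at 7.79, 7.90 and 7.59 in WT OBs, a log2 difference of -0.053 (SE 0.11). Apln, the ligand of the apelin receptor, had the smallest p of this list, with a log2 difference of 0.31 (SE 0.091, limma adjusted p = 0.456). Apln passed without WT replicate 1 (0.39). Of 15 genes of VEGF and angiopoietin signalling, Ptprb alone passed, and the median difference was 0.14.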

How the data were processed

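Total RNA of 6 OBs was hybridised to Clarion S arrays, and the log2 values deposited by the authors come from RMA. Its version and the set of arrays normalized together are not stated in the sources used. Of 28815 probe sets, 63 spike-in, 5222 negative and 1324 positive controls were left out and 22206 were tested, of which 19572 carried 1 gene symbol and 2634 none. The genotype contrast was fitted in R 4.3.3 with the linear models and moderated variances of limma 3.58.1 (prior degrees of freedom 4.47). The p threshold, 0.01 without adjustment, was that of the study's array methods, and the fold limits, above 1.3 or below 0.7, were those in the title of the authors' list of changed transcripts, with Benjamini-Hochberg adjustment over all probe sets. An exact test of 3 mice against 3 cannot go below p = 0.1. Genes with more than 1 probe set were read from that of highest mean. The panel and the 20 gene lists were chosen with earlier results of these data known. Named genes were the panel, the genes past the thresholds in each list or otherwise the gene of smallest p, fixed partners, and defining markers. In the marker lists of other cell types at most 3 were named. Genes of a list without a named probe set were not analysed here. Confidence intervals are at 95%, and precision is limited by having 3 arrays per genotype. Alternatives were array weights, a robust limma-trend fit, further normalizations, filters, a replicate block, other fold thresholds and each array left out. Marker means as a covariate or subtracted were chosen after seeing the data. The fit was tested on simulated data. Figures were drawn in Python 3.11.15 with matplotlib 3.10.9.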

Additional observations from a re-analysis of the deposited data

How the results depend on the processing

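Cldn5 lay past the thresholds, and no other gene of the panel did, in all fits run, with its difference between 0.55 and 0.82 over the arrays left out in turn and between 0.59 and 0.74 under the other alternatives. The median difference of the 10 genes was 0.065 to 0.14 without 1 array. It was 0.028 with the endothelial marker mean subtracted, which lowers the difference of every probe set by the same amount. Over all probe sets 177 lay past the thresholds, 169 to 249 without 1 array and 468 (280 higher, 188 lower) with no fold threshold. The number of lower ones was 22, against 75 where the fold had to be under 0.769 and 47 when WT replicate 1 was left out. Leaving out Tg2576 replicate 2 brought 6 probe sets under a 5% false discovery rate in limma. For same-numbered mice the labels give only the shared number, and the correlations of their deviations were 0.036, -0.038 and -0.043. Whether these mice were paired in another way is not stated in the sources used. With a replicate block, 225 probe sets lay past the thresholds and Cldn5 remained at 0.67. Without 1 array, differences of genes that did not pass ran from -0.026 to 0.17 for Abcg2, -0.14 to 0.0145 for Plvap, -0.13 to 0.11 for Acta2, -0.21 to 0.049 for Cldn3 and -0.076 to 0.056 for Cldn12, each changing sign. In the panel, Ocln (-0.0355 to 0.10), Esam (-0.075 to 0.0075), Mfsd2a (-0.069 to 0.047) and Slc2a1 (-0.080 to 0.085) changed sign in the same way. The cause was not tested.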

Other observations

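Regulators of the endothelial barrier outside the panel were also measured. Of 25 transcription factor genes of endothelium, 1 rose, against 0.698% of all probe sets, and none fell, against 0.0991%, with a median difference of -0.0044. This was Nr2f2, which encodes COUP-TFII, a factor of venous endothelium that is also made by neurons. Nr2f2 was at 11.27, 11.33 and 11.21 in Tg2576 OBs, against 10.85, 10.66 and 10.57 in WT OBs, a log2 difference of 0.58 (SE 0.092, limma adjusted p = 0.332) that passed the thresholds in each of the 6 fits without 1 array. It was also the only gene to pass among 20 genes that differ between arteries and veins, whose median difference was 0.013. Of 20 genes of the Wnt signal that maintains the barrier, none passed with limma and 0 had an unadjusted p under 0.05. Lrp5, a Wnt co-receptor, had the smallest p, with a log2 difference of 0.18 (SE 0.088, limma adjusted p = 0.618), and of 0.11 without WT replicate 3.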
